A study of Mus musculus with 10 samples.

Results

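Transcripts of the peripheral nerve were followed in the mouse aortic wall by 8 genes, Mbp, Pmp22, Sox10, S100b and Prx on the side of Schwann cells and their myelin, and Th, Dbh and Npy on the side of sympathetic neurons. A gene was included where a non-control spot of the array carried its symbol, and all 8 were found among the 35527 gene names on the array, with 11 probes. The infrarenal aorta came from male C57BL/6J mice on a normal diet, aged 10 weeks, harvested 7 days after surgery. The 5 sham mice had the aorta infused with saline, and the 5 PPE mice with saline containing type I porcine pancreatic elastase at 1.5 U/mL, a protease that breaks down elastic fibres and is used to induce an abdominal aortic aneurysm (AAA). In both groups the infusion lasted 5 min at 100 mmHg after an opening of the aorta was made at its bifurcation, so both had operated aortas and neither shows an unoperated one. Each of the 10 arrays carried 500 ng of unpooled RNA of 1 aorta, labelled with Cy5, against a Cy3-labelled universal mouse reference RNA. Every level below is a log2 ratio of aorta over reference, and every change is the difference of such ratios, PPE minus sham.

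Most vessels are innervated at the border of the adventitia and the muscle by axons of sympathetic neurons, whose cell bodies sit in ganglia outside the wall. Th (tyrosine hydroxylase, the rate-limiting enzyme of catecholamine synthesis) and Dbh (dopamine beta-hydroxylase, which turns dopamine into noradrenaline) make the transmitter, and Npy encodes neuropeptide Y, released with it. The axons run with Schwann cells, of which some wrap myelin and others ensheath bundles of thin unmyelinated axons. Sox10 is the transcription factor that keeps Schwann cell identity, S100b is a calcium-binding protein of these and some other cells, Mbp and Pmp22 are myelin proteins, and Prx (periaxin) links the myelinating Schwann cell to its surroundings.

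The promoters of the 3 neuronal genes are shown because Th and Npy varied together over the arrays, and Dbh with them less closely, as described further on. Each line gives the 250 bases before the start of the gene, 5′ to 3′ on the gene's strand, from RefSeq on GRCm38.p6. Th lies on chromosome 7 on the minus strand, with its window at chr7:142899996-142900245, Dbh on chromosome 2 on the plus strand at chr2:27165257-27165506, and Npy on chromosome 6 on the plus strand at chr6:49822460-49822709. Capitals mark 3 motifs, searched on both strands: the cyclic AMP response element TGACGTCA (CRE), the CCAAT box (CCAAT, or ATTGG on the other strand) and the AP-1 site TGANTCA. None of the marked stretches overlaps another.
Th: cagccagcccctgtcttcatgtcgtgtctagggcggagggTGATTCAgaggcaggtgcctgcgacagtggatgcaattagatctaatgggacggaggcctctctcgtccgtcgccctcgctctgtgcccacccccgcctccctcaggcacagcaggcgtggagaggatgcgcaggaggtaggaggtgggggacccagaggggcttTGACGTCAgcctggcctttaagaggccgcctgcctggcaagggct
Dbh: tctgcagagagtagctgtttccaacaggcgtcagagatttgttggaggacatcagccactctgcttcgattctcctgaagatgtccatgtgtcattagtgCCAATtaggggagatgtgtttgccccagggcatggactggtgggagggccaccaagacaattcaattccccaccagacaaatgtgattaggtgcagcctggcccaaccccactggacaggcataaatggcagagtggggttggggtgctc
Npy: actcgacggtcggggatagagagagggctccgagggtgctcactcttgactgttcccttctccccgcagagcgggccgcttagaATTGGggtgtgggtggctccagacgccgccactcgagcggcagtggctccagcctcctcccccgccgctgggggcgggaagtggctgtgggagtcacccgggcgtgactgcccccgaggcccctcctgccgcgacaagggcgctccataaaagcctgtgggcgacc

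The Th window held a CRE, whose first base lay 45 bases before the start, and an AP-1 site at 210 bases. Among 27025 mouse promoter windows of the same length, 1.62% held the CRE and 6.87% the AP-1 site. The Dbh window held a CCAAT box at 150 bases and the Npy window one at 166 bases, as did 34.5% of all windows. No motif was marked in all 3 windows. These matches describe the letters only. Of the 8 genes, 6 had a promoter entry, and Mbp and Sox10 did not.

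Each array was checked before the genes were compared. The share of red spots well above background ran from 37.6% on the array of sham 5 to 65.8% on PPE 1, so sham 5 was the dimmest. Sham 5 was also the lowest of the 5 sham arrays for 7 of the 8 nerve genes (87.5%), for 28 of 31 noradrenergic and pan-neuronal genes (90.3%) and for 24 of 32 myelin and Schwann cell genes (75%), against 30.4% of all 22520 gene names tested. On the deposited ratio, which has no offset for dim spots, these counts were 4 of 8 (50%), 27 of 31 (87.1%) and 19 of 32 (59.4%), against 34.4% of all names. The background-subtracted red intensity of Dbh was 40.0 on sham 5 and ran from 1592 to 37989 on the other sham arrays, while that of Pmp22 was 1483 and from 3246 to 11091. Sham 5 was the lowest sham array for 2 of 12 smooth muscle genes, 2 of 12 adipocyte genes and 2 of 10 endothelial genes. Sox10, Th, Dbh, Npy and the myelin, Schwann cell, noradrenergic, pan-neuronal, cofactor, receptor and chromaffin lists are therefore given with and without it. Medians and counts of the other lists are over all 10 arrays. The nearest genes by r, described further on, were also ranked over all 10 arrays only. The arrays lay on 5 slides. Sham 1 shared slide 1, the sole slide of its scan day, with PPE 1 and PPE 2. On slide 2 were PPE 3 and PPE 4 beside sham 2 and sham 3. The other 3 slides held 1 array each. In whole aortic tissue, fewer cells of a type and less RNA per cell cannot be told apart. The cell bodies of sympathetic neurons lie outside the wall, so what their transcripts here stand for (axons, or ganglion tissue taken with the vessel) cannot be told apart either.

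Among all 22520 gene names tested by limma, 3122 (13.9%) were higher and 2244 (9.96%) lower in PPE at an adjusted p under 0.01. Of the 8 nerve genes, 1 was higher (Mbp, on 1 of its 3 probes) and 1 was lower (Pmp22), both myelin genes. The 5 glial and myelin genes thus had 1 call in each direction, with a median log2 change of -0.48. The 3 sympathetic neuron genes gave no call in either direction by limma, none at an unadjusted p under 0.05 (24.8% of all names higher, 18.8% lower) and none by SAM at a q under 0.01 (17.6% higher, 13% lower), with a median change of 0.32. Without sham 5 the glial median was -0.58 and the neuronal one -0.20. Over all 8 genes and all 10 arrays the median was 0.06, against 0.02 over all names. The 2 groups of arrays did not overlap for 2 of the 8 genes, and for 25.5% of all names.

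**Figure D1:**
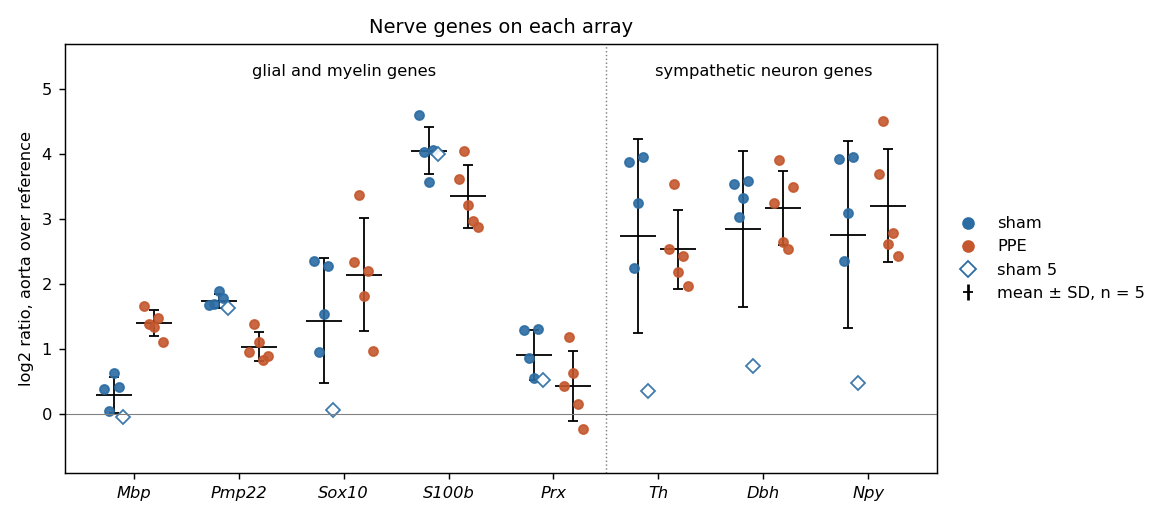
Log2 ratio of aorta over reference (y axis) of the 8 nerve genes (x axis) on each array; points are single mice, blue for sham and orange for PPE, the open diamond is sham 5, and bars are mean ± SD with n = 5 per group. Mbp lies higher and Pmp22 lower in PPE with no overlap, while for Th, Dbh, Npy and Sox10 sham 5 is the lowest sham array.

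Mbp was the nerve gene that rose. On its brightest probe (A_52_P604195, chromosome 18), the 5 sham arrays read 0.39, 0.05, 0.63, 0.43 and -0.03, and the 5 PPE arrays 1.67, 1.40, 1.34, 1.49 and 1.12. Every PPE array lay above every sham array. The mean went from 0.29 ± 0.28 to 1.40 ± 0.20 (SD, n = 5 each), a log2 change of 1.11 (SE 0.15), or 2.16-fold, with a limma adjusted p of 0.00017. Within slide 1 the change was 1.14, and within slide 2 it was 1.07.

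The other 2 Mbp probes did not follow, and both were dim. Their background-subtracted red intensity ran from 14.6 to 125 on A_55_P1992160 and from 10.3 to 213 on A_52_P329451. On the called probe it ran from 200 to 11110. The offset draws dim probes towards 0, and its part in the values of these 2 probes was not tested. A_55_P1992160 changed by 0.20 (95% interval -0.19 to 0.59, limma adjusted p = 0.43), and its signal was well above background on 2 sham and all 5 PPE arrays. A_52_P329451 changed by 0.04 (-0.50 to 0.58, adjusted p = 0.92), with 4 arrays above background in each group. The called probe lies between them, 36.5 kb from the first and 14.3 kb from the second on mm9. When the 3 probes were averaged the change of Mbp was 0.45 and the call was lost (adjusted p = 0.011). The rise is thus a value of 1 probe of 3, the other 2 being dim.

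Pmp22 moved the other way on both of its probes. On A_55_P2040170 (mm9 chr11:62972989-62973048) the sham arrays read 1.68, 1.70, 1.90, 1.80 and 1.64, and the PPE arrays 0.96, 1.39, 1.11, 0.84 and 0.90. All PPE arrays lay below all sham arrays. The mean went from 1.74 ± 0.10 to 1.04 ± 0.22 (SD, n = 5 each), a change of -0.70 (SE 0.12), or 0.615-fold, with a limma adjusted p of 0.00085. The second probe, A_55_P2040168 (mm9 chr11:62971862-62971921), changed by -0.69 (SE 0.15, adjusted p = 0.0038), again without overlap. The change was -0.50 within slide 1 and -0.83 within slide 2, and with slide as a fixed block the adjusted p rose to 0.0102, just over the threshold. With median centring in place of loess, which moved the median change of all names from 0.02 to 0.41, neither Mbp (1.68) nor Pmp22 (0.014) was called, and relative to that median they were at 1.27 and -0.39. Pmp22 is known as a myelin protein, and is also made outside the nerve.

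**Figure D2:**
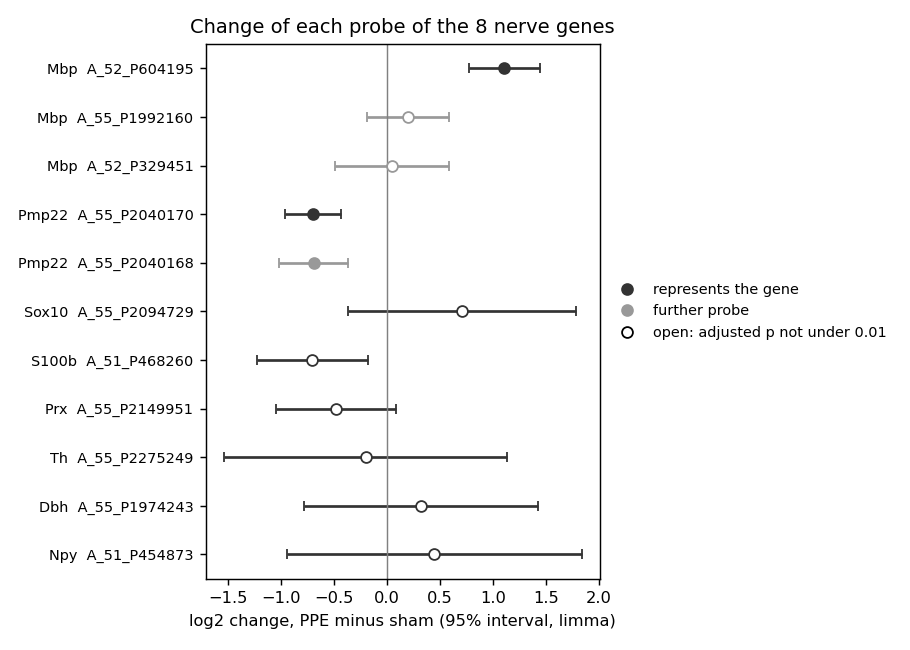
Log2 change, PPE minus sham (x axis), with the 95% interval of limma for each of the 11 probes of the 8 nerve genes (y axis); dark points stand for the gene, grey points are further probes, and filled points have an adjusted p under 0.01. Only 1 of 3 Mbp probes is filled, both Pmp22 probes are, and the intervals of Sox10, Th, Dbh and Npy are the widest.

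S100b had a lower mean in PPE that did not pass the threshold. On A_51_P468260 (mm9 chr10:75723783-75723842) the sham arrays read 4.60, 4.04, 3.57, 4.07 and 4.01, and the PPE arrays 3.63, 4.05, 3.23, 2.97 and 2.89. The array of PPE 2 reached into the sham range and PPE 1 lay just over the lowest sham array, while the other 3 PPE arrays lay below all sham arrays. The change was -0.70 (SE 0.24, 95% interval -1.23 to -0.17), with a limma adjusted p of 0.041. Without PPE 2 it was -0.88 (adjusted p = 0.0088). It was -0.76 within slide 1 and -0.71 within slide 2, and with the scan day as a block it was -0.86 (adjusted p = 0.00065). Other choices took it further from the threshold, with an adjusted p of 0.13 on the deposited ratio and without background subtraction, and 0.097 and 0.098 without sham 1 and without PPE 4. With median centring it was -0.044. S100b is made by fat cells and cartilage too. Of 12 adipocyte genes 5 were lower in PPE and none higher, led by Ucp1 (-2.94), Cidea (-2.40) and Lipe (-1.27). On the deposited ratio Ucp1 (-1.19, adjusted p = 0.030) and Cidea (-1.06, adjusted p = 0.023) were not called, and Lipe lost its call without 1 array in 7 of 10 cases, with changes of -1.31 to -1.06. The mean of that list ran from 4.37 to 5.43 over the sham arrays and from 3.23 to 4.65 over the PPE arrays, and its part in the value of S100b was not tested.

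Prx gave a similar sign with more overlap. On A_55_P2149951 (mm9 chr7:28304999-28305058) the sham arrays read 1.30, 0.87, 0.57, 1.32 and 0.53, and the PPE arrays 0.43, 1.19, 0.64, 0.16 and -0.23. PPE 2 and PPE 3 lay within the sham range and the other 3 below it. The change was -0.48 (SE 0.26, 95% interval -1.05 to 0.09, limma adjusted p = 0.18). Within slides 1 and 2 it was -0.49 and -0.32. On the deposited ratio it was -0.71 (adjusted p = 0.034), and without PPE 2 it was -0.67 (adjusted p = 0.043). Without PPE 5 it was -0.31 (adjusted p = 0.34), and with median centring 0.11. None of these passed the threshold.

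Sox10, the gene among these that is most restricted to the Schwann cell lineage, had a positive value that did not pass the test. On A_55_P2094729 (mm9 chr15:78985518-78985577) the sham arrays read 2.36, 0.96, 1.54, 2.28 and 0.07, the last not above background, and the PPE arrays 2.35, 3.38, 1.83, 2.21 and 0.98. The groups overlapped over most of their range. The change was 0.70 (SE 0.49, 95% interval -0.38 to 1.78, limma adjusted p = 0.31), and without sham 5 it was 0.36. The interval holds no change and a more than doubled level alike.

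Th read 3.89, 2.26, 3.25, 3.96 and 0.36 on the sham arrays and 2.55, 3.55, 2.19, 2.44 and 1.98 on the PPE arrays (A_55_P2275249, mm9 chr7:150078703-150078762). The sham arrays spread over a wider range than the PPE arrays and enclosed them. The sham mean of 2.74 ± 1.50 compared with a PPE mean of 2.54 ± 0.61 (SD, n = 5 each), a change of -0.20 (SE 0.61, 95% interval -1.55 to 1.14, limma adjusted p = 0.84). Without sham 5 it was -0.80 (adjusted p = 0.14), and without sham 1 or sham 4 it was 0.08 or 0.10. Within slides 1 and 2, neither of which held sham 5, it was -0.84 and -0.44.

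Dbh read 3.54, 3.04, 3.34, 3.60 and 0.74 on the sham arrays and 3.25, 3.91, 2.66, 2.55 and 3.50 on the PPE arrays (A_55_P1974243, mm9 chr2:27038665-27038724). Apart from sham 5, the sham arrays lay within the PPE range. The change was 0.32 (SE 0.51, 95% interval -0.79 to 1.43, limma adjusted p = 0.67), and -0.20 without sham 5. Within slides 1 and 2 it was 0.04 and -0.58.

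Npy read 3.93, 2.36, 3.10, 3.97 and 0.48 on the sham arrays and 3.70, 4.51, 2.63, 2.79 and 2.43 on the PPE arrays (A_51_P454873, mm9 chr6:49773743-49777505, an interval longer than the probe). The lowest sham value, of sham 5, was not above background, and it was 2.57 on the deposited ratio without the offset. For Th and Dbh sham 5 read 0.75 and 2.06 on that ratio, again the lowest of all 10 arrays. The change of Npy was 0.44 (SE 0.64, 95% interval -0.95 to 1.84, limma adjusted p = 0.64), and -0.13 without sham 5. Within slides 1 and 2 it was 0.18 and -0.02. For each of the 3 neuronal genes, the SD over the sham arrays was larger than that of 99.4% of all gene names tested. Without sham 5 this SD was 0.79 for Th, 0.25 for Dbh and 0.76 for Npy, larger than that of 98.5%, 66.5% and 98.4% of names over the same 4 arrays, so the wide spread of Dbh rested on sham 5.

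Th, Npy and Sox10 varied together from array to array, and Dbh less closely with them. After the mean of each group was subtracted, Pearson's r over the 10 arrays was 0.97 between Th and Npy, 0.90 between Th and Dbh, and 0.88 between Dbh and Npy. It was 0.91 between Th and Sox10, 0.94 between Npy and Sox10 and 0.69 between Dbh and Sox10. Without sham 5, the r of Th was 0.95 with Npy, 0.93 with Sox10 and 0.63 with Dbh, and the r of Dbh was 0.70 with Npy and 0.45 with Sox10, so the values of Dbh rested in part on that array. S100b and Npy stood at 0.79 without sham 5 and at 0.55 with it. The arrays share the depth of each hybridization, so these are descriptions of 10 arrays. The other glial genes were less close to Th than Sox10 was, whether or not the groups separated them. The r to Th was 0.68 for Mbp (0.51 without sham 5) and 0.48 for Pmp22 (0.53 without it). For the uncalled Prx and S100b it was 0.66 (0.72 without sham 5) and 0.40 (0.64 without it).

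**Figure D3:**
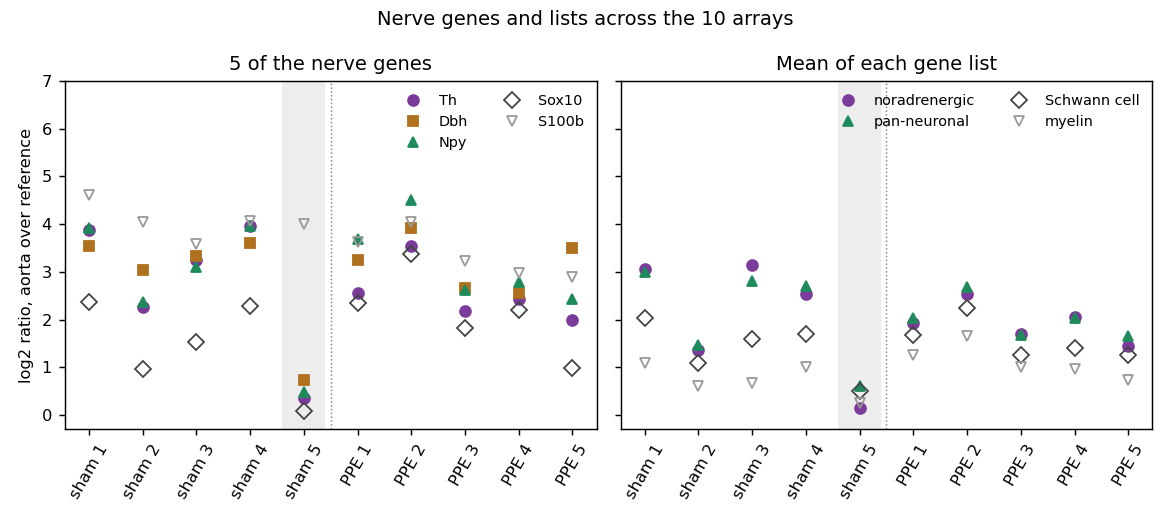
Log2 ratio of aorta over reference (y axis) on each of the 10 arrays (x axis), on the left for Th, Dbh, Npy, Sox10 and S100b and on the right for the mean of the noradrenergic, pan-neuronal, Schwann cell and myelin lists; the grey band marks sham 5. On sham 5 Th, Dbh, Npy and Sox10 read between 0.07 and 0.74 while S100b read 4.01, and PPE 2 was the highest PPE array for each of the 5 genes.

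The difference between a pair of these genes within an array was looked at next. Npy minus Th ran from -0.15 to 0.12 over the 5 sham arrays and from 0.35 to 1.15 over the 5 PPE arrays. The groups did not overlap, and the sham arrays, sham 5 included, lay within a narrow range. On the deposited ratio without the offset, sham 5 read 1.82 for this difference and PPE ran from 0.45 to 1.33. The groups overlapped there without sham 5 too, since sham 2 and sham 4 read 0.52 each, above PPE 4 (0.45). Sox10 minus Th ran from -1.71 to -0.29 in sham and from -1.004 to -0.17 in PPE. The 2 groups overlapped there through sham 5, which lay above PPE 3 and PPE 5, and without sham 5 the sham arrays ended at -1.29. Dbh minus Th ran from -0.36 to 0.78 in sham and from 0.11 to 1.52 in PPE, with overlap. These differences were looked at after the values were known, and they carry no test. They are differences of ratios to the reference, not of amounts of transcript.

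Set side by side per array, the mean of the 5 glial genes minus the mean of the 3 neuronal genes ran from -1.86 to 0.72 in sham, with sham 5 at the upper end, and from -1.71 to -0.86 in PPE. Without sham 5 the sham arrays ended at -1.03, so the 2 groups covered almost the same range. Of all 28 pairs of the 8 genes, 5 (17.9%) did not overlap between the groups. Among single names the share was 25.5%, which is not a like measure, and no share over all pairs of names was computed. Besides Npy and Th, the pairs without overlap lay within the glial side, and 3 of them held Mbp and so repeat the value of its 1 probe. Pmp22 minus Mbp ran from 1.26 to 1.68 in sham and from -0.70 to -0.00048 in PPE, S100b minus Mbp from 2.94 to 4.21 and from 1.48 to 2.66, and Prx minus Mbp from -0.07 to 0.92 and from -1.35 to -0.20. Prx minus Sox10 ran from -1.06 to 0.46 in sham and from -2.18 to -1.19 in PPE.

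The genes whose pattern within groups was closest to that of each nerve gene were taken as the 3 with the highest r over the 10 arrays. The dimmest sham array was included, and these r values were not computed without it. For Th, Dbh, Npy and Sox10 that array was the lowest sham array, so their nearest genes may rest in part on it. For Th these were Ngfr (r = 0.997), a receptor of the neurotrophins, Prph (0.99), the intermediate filament peripherin of peripheral neurons, and Uqcrc2 (0.99), a subunit of mitochondrial complex III. Ngfr (0.99) was also the closest to Npy, followed by Gm1833 and Nudt11 (0.98 each). For Dbh they were Stmn3 (0.96), a stathmin of neurons, Ndufs3 (0.95), a subunit of complex I, and 4930519H02Rik (0.95). Sox10 was closest to Popdc2 (0.99), Asap1 (0.99) and Daam2 (0.98). Mbp was closest to Ndfip1 (0.98), Isca2 (0.97) and Ccdc91 (0.96), Pmp22 to Btbd11 (0.96), Ces5 (0.92) and Rasgrp3 (0.90), S100b to Ankrd29 (0.98), Galr2 (0.97) and Gucy1a3 (0.97), and Prx to Hr (0.98), Vezf1 (0.98) and Tbc1d12 (0.96). All 8 genes thus had neighbours with an r of 0.90 or more, so a high r alone sets none of them apart.

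Among the neighbours, Ngfr read 4.54, 2.68, 3.91, 4.61 and 0.38 on the sham arrays and 3.89, 5.04, 3.18, 3.45 and 2.94 on the PPE arrays. Sham 5 was again the lowest, and the change of 0.47 did not pass the test (limma adjusted p = 0.67). Others changed between the groups although they followed a nerve gene within them. Uqcrc2 (-1.55), Ndufs3 (-1.27), Gm1833 (-0.92), Popdc2 (-1.59), Hr (-1.62) and Vezf1 (-0.96) were lower in PPE, and Rasgrp3 (0.95) was higher, each at a limma adjusted p under 0.01.

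Further genes of the nerve and of its targets were read from lists. Each count of limma calls stands beside the share over all names, 13.9% higher and 9.96% lower. At an unadjusted p under 0.05 these shares were 24.8% and 18.8%, and the groups did not overlap for 25.5% of all names. The myelin, Schwann cell and skeletal muscle counts lay near or below these shares and are not read as changes of those lists. On the sheath side, 3 of 17 tested myelin genes rose, 1 fell and 13 did not pass, with a median change of 0.31. Without sham 5 the median was 0.21, with 1 gene called higher and 1 lower. Egr2, a transcription factor that drives myelination and is also made by macrophages and T cells, ran from -1.19 to -0.48 in sham and from 0.62 to 1.72 in PPE, a change of 1.89 (SE 0.22). Mag, a glycoprotein of the inner face of myelin, ran from -0.07 to 1.20 and from 1.40 to 3.22, a change of 1.66 (SE 0.39). Cnp, an enzyme of myelin that other cells also make, rose by 0.89 (SE 0.20). Cd9, a tetraspanin of many cell types, fell by 0.69 (SE 0.14). The groups did not overlap for any of these 4. Egr2 kept its call in all 25 alternatives run. Mag lost it in 10 of 24, among them without sham 2, sham 3, sham 5, PPE 1, PPE 2 or PPE 4, with an adjusted p of 0.166 at most. Cnp lost it in 5 of 25, among them without sham 2, sham 5 or PPE 1, and Cd9 was at 0.073 with median centring.

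Of 15 tested genes of Schwann cells in general 1 rose, 1 fell and 13 did not pass (median 0.42, and 0.15 without sham 5). Cadm4, an adhesion molecule of the myelin internode, rose by 0.74 (SE 0.13), and Ncam1 fell by 2.23 (SE 0.16). Ncam1, an adhesion molecule of unmyelinating Schwann cells and of neurons, muscle and natural killer cells, ran from 1.36 to 1.98 in sham and from -0.71 to -0.23 in PPE. Erbb3, the neuregulin receptor of Schwann cells, and Sox2 were above background on too few arrays to be tested. Of 7 tested genes of the Schwann cell response to injury none was called by limma, 2 were lower at an unadjusted p under 0.05, and SAM called 1 lower (median -0.56). Shh of that list was above background on no array, and Olig1, Lif and Runx2 were on too few to be tested.

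On the neuronal side, none of 15 tested noradrenergic genes rose, 3 fell and 12 did not pass (median -0.24). Without sham 5 the median was -0.65, with 0 called higher and 2 lower. Cyb561, a cytochrome of secretory vesicles that feeds electrons to dopamine beta-hydroxylase, fell by 1.27 (SE 0.26). Gata2 and Gata3, transcription factors of sympathetic neurons and also of endothelial, mast and T cells, fell by 0.69 (SE 0.17) and 0.54 (SE 0.14). For Cyb561 the groups overlapped through sham 5 and PPE 2, and for the other 2 they did not. Gata2 and Gata3 stood close to the threshold: leaving out 1 array cost the call of Gata2 in 7 of 10 cases and of Gata3 in 9 of 10, with changes of -0.69 to -0.59 and -0.57 to -0.44, and Gata3 was at 0.080 with median centring. Insm1 was not tested. Slc6a2, the noradrenaline transporter, and Ddc, the enzyme between Th and Dbh in the pathway, both named for their role with their values known, changed by -0.24 (adjusted p = 0.84) and -0.52 (adjusted p = 0.59). Without sham 5 they changed by -0.91 (adjusted p = 0.22) and -1.13 (adjusted p = 0.066). Of 16 pan-neuronal genes limma and SAM called none, and 2 were lower and none higher at an unadjusted p under 0.05 (median -0.22, and -0.43 without sham 5). The mean of that list ran from 0.62 on sham 5 to 2.99 in sham and from 1.65 to 2.69 in PPE. In the noradrenergic and pan-neuronal lists together, the median SD over the sham arrays was 1.17 and over the PPE arrays 0.55, against 0.22 and 0.25 over all names. Without sham 5 the sham medians were 0.82 in the lists and 0.20 over all names.

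**Figure D4:**
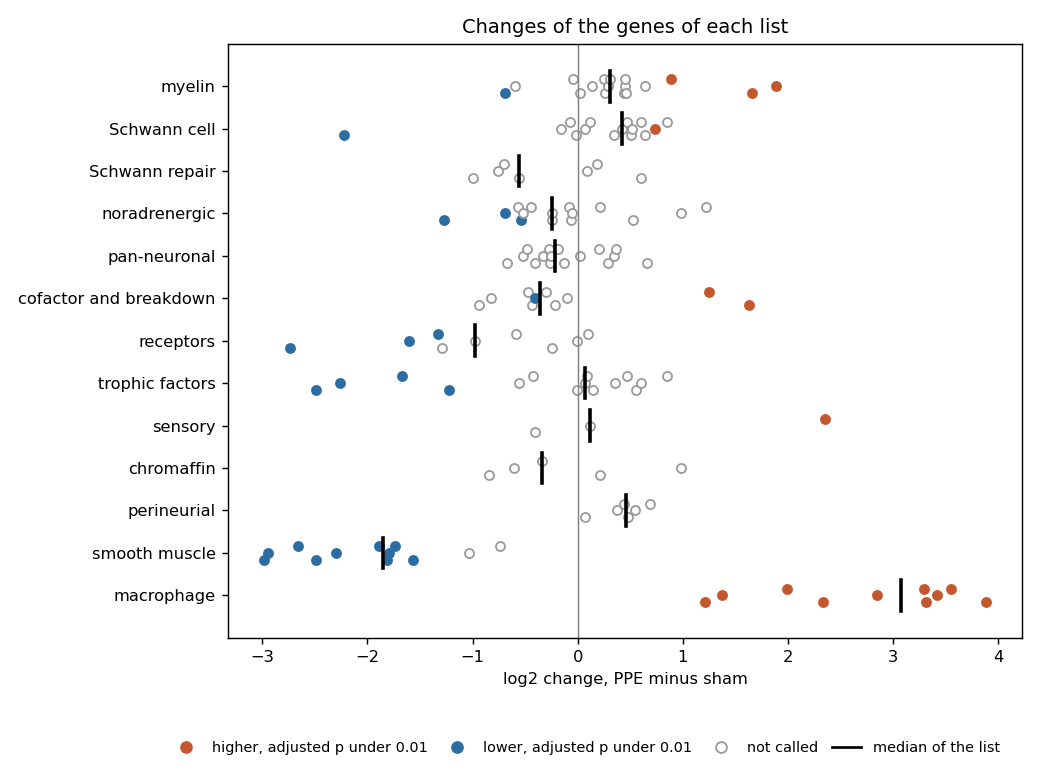
Log2 change, PPE minus sham (x axis), of every tested gene of 13 lists (y axis); filled orange and blue points were called higher and lower by limma at an adjusted p under 0.01, open points were not called, and the black bar is the median of the list. The pan-neuronal list holds no filled point and the noradrenergic list 3, all lower, while 10 of 12 smooth muscle genes are lower and all 10 macrophage genes higher.

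Genes that make the cofactor of Th or break down the transmitters and peptides went both ways. Of 10 tested, Gch1, the rate-limiting enzyme of tetrahydrobiopterin synthesis, rose by 1.25 (SE 0.26), Dpp4, a peptidase that cuts neuropeptide Y, rose by 1.63 (SE 0.26), and Spr, the last enzyme of tetrahydrobiopterin synthesis, fell by 0.40 (SE 0.10). The groups overlapped for Gch1 through sham 3 and PPE 2, and did not for Dpp4 and Spr. Without sham 5, 2 genes of this list were called higher and 3 lower. Spr lost its call without 1 array in 7 of 10 cases, with changes of -0.42 to -0.37, and was at 0.27 with median centring. Gch1 changed by 0.79 (adjusted p = 0.038) with the mean of its probes. Gch1 and Dpp4 are known to be made by immune cells too.

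The receptors for the transmitters fell or did not pass. Of 9 tested, 3 were lower and none higher (median -0.98). Without sham 5, 4 were lower and 0 higher (median -1.01). Npy1r, the main neuropeptide Y receptor of vascular muscle, read 4.46, 4.52, 3.57, 3.32 and 3.20 in sham and 0.99, 1.80, 1.01, 1.21 and 0.37 in PPE. All PPE arrays lay below all sham arrays, a change of -2.74 (SE 0.32, limma adjusted p = 5.2e-05). Adrb1 and Adra1d, adrenergic receptors, fell by 1.60 (SE 0.41) and 1.33 (SE 0.24). Adrb1 lost its call without 1 array in 8 of 10 cases, with changes of -1.72 to -1.32. On the deposited ratio the 2 changed by -3.18 (adjusted p = 0.024, not called) and -2.57. Npy2r and Npy5r were above background on no array, and Adra1a was on too few to be tested. Of 12 smooth muscle genes, 10 were lower, led by Synpo2 (-2.98), Tagln (-2.95) and Myocd (-2.66, and -1.76 with an adjusted p of 0.027 on the deposited ratio). The mean of that list ran from 3.16 to 4.37 in sham and from 1.59 to 2.66 in PPE, and its part in the receptors' values was not tested.

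Of 15 tested trophic factors and their receptors, 4 were lower and none higher (median 0.07). Nrtn (neurturin, a ligand of the GDNF family) read between 1.30 and 2.41 in sham and between -0.71 and 0.46 in PPE, a change of -2.49 (SE 0.26). Ntf3 (neurotrophin-3, a survival factor for sympathetic neurons that vascular muscle makes) read between 4.31 and 5.80 and between 2.17 and 4.03, a change of -2.26 (SE 0.35). On the deposited ratio, however, Ntf3 changed by -0.18 (limma adjusted p = 0.72), and its reference signal was well above background on 4 sham and 0 PPE arrays. Ntrk3, the receptor of neurotrophin-3, fell by 1.67 (SE 0.40), and Ntrk2, outside the rule for naming and added with its value known, by 1.22 (SE 0.25). With the mean of its probes Ntrk2 changed by -0.96 (limma adjusted p = 0.093) and was not called. Ntrk3 lost its call without 1 array in 6 of 10 cases, with changes of -1.67 to -1.40, and changed by -0.91 (adjusted p = 0.047) on the deposited ratio.

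Markers of other cells that could hold or mimic nerve transcripts were measured beside them. Of the sensory neuron list, 3 of 8 genes could be tested. Calca, the gene of calcitonin and of the calcitonin gene-related peptide, rose by 2.36 (SE 0.33, limma adjusted p = 0.00022), and was above background on 1 sham and all 5 PPE arrays. It passed the filter through the PPE arrays, its sham level was not above background on the other 4 sham arrays, and its change was 5.58 on the deposited ratio. The sensory genes Scn9a, Scn10a, Prrxl1 and Tac1 were above background on no array. Trpv1 and Avil were above background on 8 and 9 arrays and were not called. They changed by 0.12 (limma adjusted p = 0.70) and -0.41 (adjusted p = 0.17). Of 5 chromaffin cell genes limma and SAM called none, and 1 was lower at an unadjusted p under 0.05 (median -0.34, and -0.62 without sham 5). Of 6 tested perineurial genes none was called by limma or SAM, and 2 were higher at an unadjusted p under 0.05. Of the oligodendrocyte list, Mag alone was called, Mog changed by 0.07 (adjusted p = 0.78), and Olig2 and Opalin were above background on no array. All 10 macrophage genes were higher, led by Fcgr1 (3.89), Cx3cr1 (3.55) and Emr1 (3.42), and their list mean ran from 0.48 to 0.93 in sham and from 2.98 to 4.03 in PPE. On the deposited ratio Cx3cr1 (1.99, adjusted p = 0.012), Lyz2 (1.10, adjusted p = 0.012) and Mrc1 (0.58, adjusted p = 0.23) were not called. Of 9 lymphocyte genes 4 were higher, led by Cd3d (2.97), Lck (2.73) and Cd3g (2.36). The list mean ran from -0.80 to 0.47 in sham and from 0.39 to 1.85 in PPE. The part of these cells in the values of Mbp, Egr2, Gch1, Dpp4 and Calca was not tested. Of 9 tested fibroblast genes 5 were higher, led by Col1a1 (2.04), Col3a1 (1.95) and Col1a2 (1.21). Of the other 2, Pdgfra lost its call without 1 array in 9 of 10 cases and Fbln1 in 8 of 10. Endothelial genes gave no limma call in 10, 2 higher and 1 lower at an unadjusted p under 0.05, and 1 higher by SAM. Of 9 tested skeletal muscle genes 1 was lower, Myh2 (-3.84).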

How the data were processed

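RNA of 5 sham and 5 PPE aortas was hybridised by the authors on 2-colour 8x60K arrays and read with version 10.7.3.1 of Feature Extraction. According to the study's methods, arrays of poor hybridization or far from the rest were left out by the authors. Dyes were not swapped. Spot signals are deposited as intensity, not logged, the LogRatio column as the log10 of red divided by green, and the deposited series matrix holds log2 ratios, equal to processed red over green on 100% of spots within 1e-04 (array medians -0.16 to 0.12).

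In R 4.3.3 with limma 3.58.1, the mean signal was corrected by normexp (offset 50, which draws dim probes towards 0) and loess within arrays, without control spots and outlier spots. A probe was tested if red was well above background on 5 of the 10 arrays or more, and a gene is its brightest tested probe. Groups were compared by limma, two-sided, with Benjamini-Hochberg over 22520 names and a threshold of 0.01, after the 1% false discovery rate of the methods, whose SAM was an alternative (100 of 252 relabellings). Slide, scan day and replicate blocks, other corrections, filters and probe rules, and each array left out, were tried. The steps were tested on simulated data.

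The 8 genes and all lists were chosen with earlier results of these data known. Named were the 8 genes, up to 3 called genes per list and direction, list markers above background on no array, and the 3 nearest genes by r among names in the RefSeq table, and other genes as the text states. Positions of probes are those of the files (mm9); RefSeq GRCm38.p6 gave names and promoters. Exon and UTR annotation on mm9 was not used here. The number of arrays limits the precision. Some genes of the lists are counted but not reported here by name.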

Additional observations from a re-analysis of the deposited data

Results flagged for a closer look

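Of 54 groups of 5 arrays checked, 3 held an array whose gap to the nearest other array was over 0.71 of the group's range (Dixon's 95% value), and chance gives about 1 in 20. For Dbh in sham, sham 5 read 0.74 and the next array 3.04, a ratio of 0.804. For the mean of the smooth muscle list in PPE, PPE 2 read 2.66 and the next array 1.77, a ratio of 0.831. For the mean of the lymphocyte list in sham, sham 3 read 0.47 and the next array -0.47, a ratio of 0.735.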

How the results depend on the processing

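Median centring in place of loess moved the median change of all names from 0.02 to 0.41 and the share of higher among called names from 58.2% to 98.1% (408 higher, 8 lower, against 3122 and 2244). Under it 0 glial genes were called higher and 0 lower, Mbp changed by 1.68 (adjusted p = 0.13), Pmp22 by 0.014, Prx by 0.11 and Th by 0.29. Relative to the median of all names, Mbp was then at 1.27, Pmp22 at -0.39, Prx at -0.30 and Th at -0.12. Also reversed were Cd9 (0.073), Gata3 (0.080), Spr (0.27), Isca2 (0.19), Ccdc91 (0.43), Btbd11 (0.16), Daam2 (0.24) and Gucy1a3 (0.016). The causes were not tested. With the mean of probes, Mbp changed by 0.45 and 0 glial genes were higher. With slide as a fixed block, where 3 slides of 1 array add nothing, 0 glial genes were lower, Pmp22 changed by -0.70 and Dbh by -0.33, and Ngfr (-0.022), Prph (-0.29) and Stmn3 (-0.18) turned negative. With slide as a random block 2 glial genes were lower, with S100b at -0.75 and Prph at -0.031. With the scan day as a block 2 were lower, with S100b at -0.86 and Prph at -0.056. At an adjusted p under 0.05, 2 were lower, with S100b at -0.70.

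With each array left out in turn, all names called ran from 2514 to 3615 higher and from 1752 to 2348 lower, glial genes called higher stayed at 1 and lower ran from 1 to 2, the change of S100b ran from -0.88 to -0.57, Th from -0.80 to 0.10, Dbh from -0.20 to 0.51 and Npy from -0.13 to 0.74. The 2 called lower were Pmp22 and S100b, without PPE 2. The change of Ngfr ran from -0.24 to 0.82, Prph from -0.43 to 0.58 and Stmn3 from -0.20 to 0.73, each negative without sham 5, and Prph also without PPE 2. A filter on red above background on all 10 arrays gave no value for Sox10 and Npy. With a replicate block, 3024 names were higher and 2281 lower, and Mbp (adjusted p = 0.00038) and Pmp22 (0.0030) kept their calls. The numbers did not pair the arrays: same-numbered deviations correlated at 0.29, -0.30, 0.16, -0.14 and 0.52. For 78 genes outside the 8 and 25 settings, 1717 of 1935 values kept direction and call, 183 lost the call, 18 gained it and 17 turned. With the mean of the pan-neuronal list as a covariate, chosen after seeing the data, no call among the 8 genes changed (Sox10 0.81, adjusted p = 0.024; Npy 0.59, 0.085; Dbh 0.42, 0.29). Dim arrays limit what can be said of genes near background.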
